A study of Mus musculus with 59 samples.

Results

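The genes described here encode the proteins of the mitochondrial ribosome (mitoribosome). They were taken as every row of the deposited expression table whose symbol begins with Mrpl (large subunit) or Mrps (small subunit), followed by a number and at most 1 letter. This gave 77 genes of 47643 in the table, 48 named for the large and 29 for the small subunit, and all 77 passed the filter on low values in every fit. The mitoribosome translates the few messenger RNAs that mitochondrial DNA encodes, all of them for subunits of the respiratory chain and ATP synthase. Its ribosomal RNAs are transcribed inside the organelle, whereas every one of its proteins is encoded in the nucleus, made in the cytosol and imported, so that assembly joins products of both genomes. Many of the proteins descend from those of the bacterial ribosome and others were added in the mitochondrial lineage. Skeletal muscle, which relies on oxidative phosphorylation for sustained contraction, depends on this machinery.

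RNA-seq libraries of 59 muscles came from female NCI Ath/nude mice, 4 months old, a host that lacks mature T cells, and all mice carried a patient-derived human melanoma xenograft. The cachectic melanoma (CAC) causes muscle wasting and the non-cachectic melanoma (NONCAC) does not, so each contrast sets 1 tumor against the other and no tumor-free mouse was included. Diaphragms came from mice given intraperitoneal mock injections (PBS with BSA; CAC n = 10, NONCAC n = 9) or recombinant Fibcd1 (rFibcd1; n = 10 each), a secreted protein examined as a regulator of myofiber size. Tibialis anterior (TA, a fast limb muscle) and soleus (SOL, a slow one) came from mice of each melanoma, with n = 5 per muscle and melanoma.

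Values are TPM (a measure of transcript abundance), scaled by transcript length and to the same total in every library, so levels of different genes can be compared and sequencing depth cannot be recovered. Genes above 0 numbered 16436 to 19456 per library. The slow myosin Myh7 was at 4288 to 7886 TPM in SOL and at 0.271 to 4.83 TPM in TA, while the fast myosin Myh4 was at 7593 to 14537 TPM in TA. In 1 cachectic SOL library Myh4 reached 4989 TPM, against a median of 28.04 TPM over the 10 SOL libraries, and SOL counts, sums and the genes described in full are also given without it. In 1 cachectic TA library mitochondrial transcripts took 25.1% of TPM, against 38.9% to 45.6% in the other 4, and the same TA results are given without it. The libraries also fall into a high and a low state by the level of the pseudogene Pcna-ps2 (at least 1 TPM in the high state). In the mock diaphragm 9 of 10 CAC but 3 of 9 NONCAC libraries were in the high state, and in TA and SOL all CAC libraries were high and all NONCAC libraries low, so in the limb muscles the state coincides with the melanoma.

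The mitochondrial share of TPM was lower in CAC muscle, at 38.1% ± 3.18 (SD, n = 10) against 47.5% ± 2.97 (SD, n = 9) in the mock diaphragm, 38.8% ± 8.12 against 48.5% ± 1.80 (SD, n = 5 each) in TA and 30.5% ± 3.92 against 41.1% ± 2.00 (SD, n = 5 each) in SOL. In a fixed total, the summed TPM of the other genes is then higher, and its part in the medians that follow was not tested. The median log2 fold change of all genes tested, CAC against NONCAC, was 0.20 in the mock diaphragm, 0.41 in TA and 0.09 in SOL. Each contrast is therefore given on the deposited scale and after median-ratio scaling, which sets the typical gene near 0. Fold changes are on the log2(TPM + 1) scale, with limma's moderated test and Benjamini-Hochberg adjustment over all genes tested, and a call means an adjusted p under 0.05. In whole muscle, fewer cells of a type and less RNA per cell cannot be told apart.

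The 77 genes lie on 17 chromosomes (GENCODE M21, GRCm38). Another annotated gene overlaps 41 of them, 13 on the same strand and 35 on the opposite strand. Their start sites often lie back to back with another gene. A coding gene on the opposite strand started within 1000 bp in 18 of 77 (23.4%), against 1486 of 21992 protein-coding genes (6.76%). Mrps18c and Helq start 29 bp apart, Mrpl49 and Fau 59 bp, Mrpl32 and Psma2 75 bp, Mrps27 and Ptcd2 81 bp, and Mrps12 and the mitochondrial seryl-tRNA synthetase gene Sars2 172 bp. The transcripts are short, with a median of 1047 nt against 2136.5 nt over the genes tested in the diaphragm.

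RefSeq promoters (GRCm38.p6, 250 bases before to 50 bases after each start) matched 68 of the 77 genes by symbol, with 74 promoters among 32851. The 5 motifs searched, on both strands, are those of factors known to bind promoters of nuclear-encoded mitochondrial or ribosomal genes. The core GCGCANGCG, like the site of NRF1 (nuclear respiratory factor 1), was in 21.6% of the mitoribosomal promoters and 6.25% of all promoters. The ETS-like CCGGAAG, a core that GABPA can bind, was in 33.8% against 8.86%, and the YY1-like GCCATNTT in 27% against 6.05%. The GC box GGGCGG was in 52.7% against 35.7% and the E-box CACGTG in 9.46% against 7.15%. By gene, the NRF1-like core was in 12 of 42 large-subunit and 4 of 26 small-subunit genes, the ETS-like motif in 14 and 11, and the YY1-like motif in 13 and 7. The 150 bases before the RefSeq start of 4 genes are printed, all from the plus strand, with matches to the NRF1-like or ETS-like letters in capitals. Mrpl33 (chr5:31613801-31613950) and Mrpl52 (chr14:54426759-54426908) are shown because their levels were called higher in CAC muscle of all 3 kinds on the deposited scale (not in all 3 after median-ratio scaling). Mrpl12 (chr11:120484487-120484636) and Mrpl45 (chr11:97315566-97315715) are shown because they hold the NRF1-like core.
Mrpl33: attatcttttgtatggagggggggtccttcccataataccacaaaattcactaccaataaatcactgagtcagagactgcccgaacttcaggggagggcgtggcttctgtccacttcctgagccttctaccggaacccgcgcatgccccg
Mrpl52: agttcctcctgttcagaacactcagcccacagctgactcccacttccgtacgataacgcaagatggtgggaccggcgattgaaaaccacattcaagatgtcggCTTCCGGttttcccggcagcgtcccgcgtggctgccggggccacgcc
Mrpl12: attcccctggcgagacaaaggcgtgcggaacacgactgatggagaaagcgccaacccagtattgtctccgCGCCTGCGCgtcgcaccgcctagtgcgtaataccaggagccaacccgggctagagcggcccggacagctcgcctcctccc
Mrpl45: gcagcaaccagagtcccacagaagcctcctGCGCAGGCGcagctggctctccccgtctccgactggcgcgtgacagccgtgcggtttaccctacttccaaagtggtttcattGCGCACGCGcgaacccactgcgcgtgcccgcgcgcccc
The match in Mrpl52 is the reverse complement of the ETS-like motif, and that in Mrpl12 the reverse complement of the NRF1-like core. Mrpl45 holds the core at 2 places. The stretch of Mrpl33 holds neither motif, and the ETS-like match of its window lies outside it. The 2 annotations place some starts differently. In GENCODE Mrpl33 starts at 31596935, so its stretch lies inside that gene. Mrpl12 starts there at 120484613, within its stretch. A match is a sequence description and was not tested for binding here.

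Levels of the genes spanned close to 2 orders of magnitude. Mrpl42, a large-subunit protein without a bacterial counterpart, had the highest mean over the 59 libraries, 451 TPM, with a range of 270 to 653. It was followed by Mrpl12, the stalk protein to which translation factors dock, at 150 TPM and by the small-subunit gene Mrps21 at 142 TPM. The lowest means were those of Mrpl19 at 7.68 TPM, Mrps22 at 6.60 TPM and Mrps10 at 5.04 TPM. Transcripts of subunits that assemble into 1 particle were thus not listed at equal levels.

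Summed over the genes named for the large subunit, TPM was 2794 ± 273 in the CAC (SD, n = 10) and 2603 ± 216 in the NONCAC mock diaphragm (SD, n = 9). The small-subunit sums were 1201 ± 102 and 1096 ± 100. Within the high state, large and small subunit together held 3488 to 4622 TPM (median 4030) in 9 CAC mock diaphragms. In 3 high-state NONCAC mock diaphragms they held 3854 to 4331 TPM (median 3929). Within the low state 1 CAC library was at 3417 TPM, inside the 3391 to 3839 TPM (median 3466) of 6 NONCAC libraries. The part of the state in the difference between these sums was not tested. In TA the large-subunit sum was 2411 ± 310 in CAC and 2165 ± 52.1 in NONCAC muscle (SD, n = 5 each), and the small-subunit sum 1151 ± 204 and 935 ± 12.7. In SOL the sums were 2582 ± 142 and 2451 ± 18.3 for the large and 1170 ± 26.5 and 1067 ± 16.7 for the small subunit. With rFibcd1 the diaphragm sums were 2786 ± 415 (CAC) and 2695 ± 149 (NONCAC, SD, n = 10 each) for the large and 1221 ± 197 and 1148 ± 51.6 for the small subunit. Without the CAC TA library of low mitochondrial share the TA sums were 2279 ± 104 and 1062 ± 53.5 TPM (SD, n = 4), and without the CAC SOL library of high Myh4 the SOL sums were 2619 ± 133 and 1181 ± 13.02 TPM (SD, n = 4). As deposited, the small-subunit sum of every CAC library was above that of every NONCAC library in TA and SOL, and the large-subunit sums overlapped. After median-ratio scaling within the 6 groups without rFibcd1 the order in TA turned, with scaled small-subunit sums of 1090 to 1267 in CAC and 1348 to 1464 in NONCAC libraries and large-subunit sums of 2129 to 2749 and 3118 to 3363, both without overlap. In SOL the scaled sums were 936 to 1268 and 979 to 1061 for the small and 1971 to 2867 and 2249 to 2474 for the large subunit, and they overlapped. In the mock diaphragm the order of the means also turned, at 2372 (CAC) and 2603 (NONCAC) for the large and 1019 and 1095 for the small subunit. The ranges there overlapped.

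**Figure D1:**
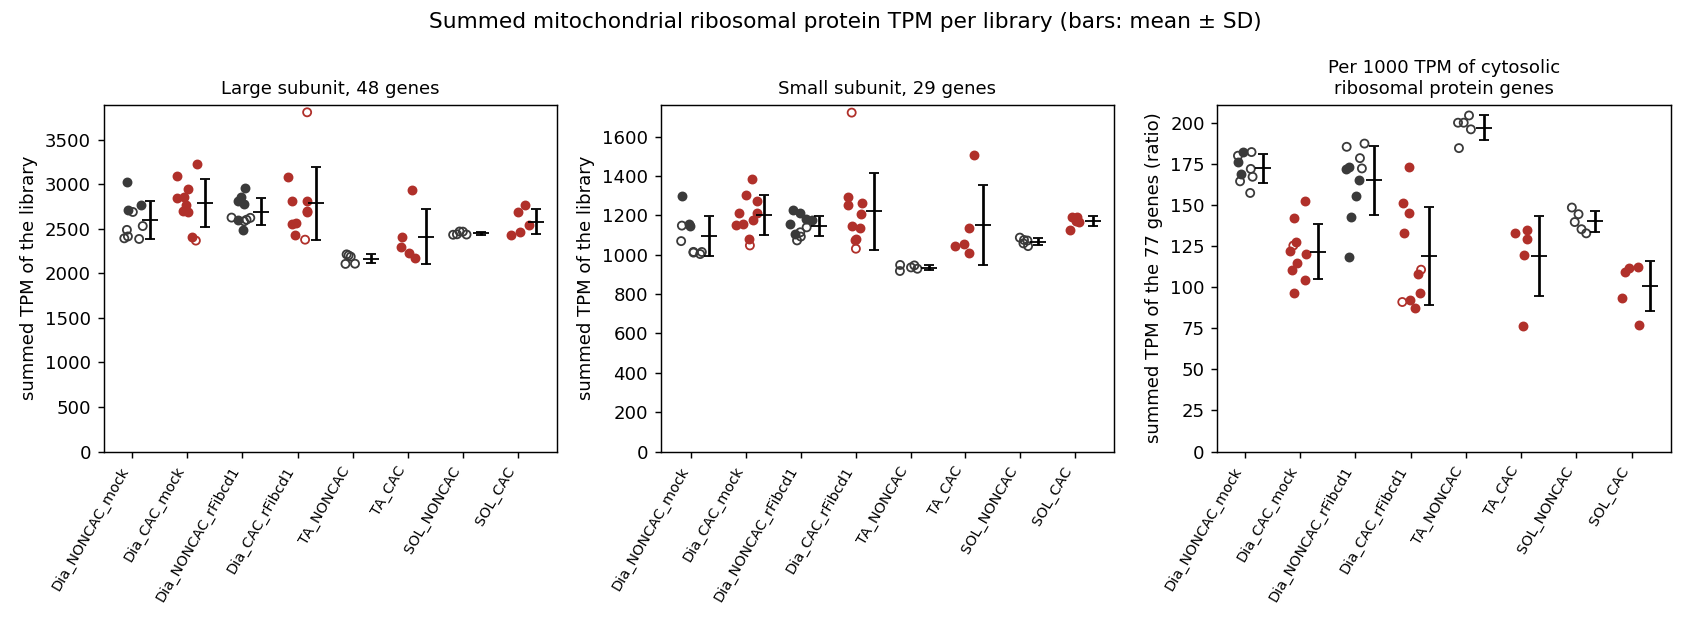
Summed TPM of the 48 large-subunit genes, of the 29 small-subunit genes, and of all 77 per 1000 TPM of cytosolic ribosomal protein genes, for each of the 59 libraries by group, with bars for mean ± SD. Each circle is 1 library, red for CAC and dark for NONCAC, filled for the high and open for the low Pcna-ps2 state. Per cytosolic ribosomal TPM the CAC libraries lie below the NONCAC libraries in TA, SOL and the mock diaphragm, while the small-subunit sums of CAC limb muscle lie above on the deposited scale (in TA they lie below after median-ratio scaling). In TA, SOL and the mock diaphragm the mean cytosolic sums were themselves higher in CAC.

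The ratio of the summed TPM of genes named Mrpl to that of genes named Mrps, which does not depend on how a library is scaled, was 1.95 to 2.18 in the 5 CAC and 2.27 to 2.35 in the 5 NONCAC TA libraries, with no overlap, and 2.12 to 2.18 in CAC without the library of low mitochondrial share. In SOL it was 2.11 to 2.32 in CAC and 2.27 to 2.33 in NONCAC, and in the mock diaphragm 2.23 to 2.42 and 2.33 to 2.46, so these groups overlapped. Mrpl42 alone weighs on this ratio. Without it the TA ratios were 1.65 to 1.75 and 1.76 to 1.86, still apart. The names do not follow the place of every protein, since Mrps18a and Mrps30 sit in the large subunit and Mrps36 belongs to the 2-oxoglutarate dehydrogenase complex. With those 2 counted as large and Mrps36 left out (50 large and 26 small), a grouping chosen after the values were seen, the TA ratios were 2.34 to 2.56 in CAC and 2.67 to 2.80 in NONCAC libraries, and without Mrpl42 1.99 to 2.06 and 2.09 to 2.22, in both cases apart. In SOL they were 2.51 to 2.75 and 2.69 to 2.78 and in the mock diaphragm 2.67 to 2.88 and 2.74 to 2.90, and these overlapped. The small-subunit sums counted in this way were 886 to 1294 and 801 to 828 TPM in TA and 992 to 1038 and 900.4 to 946 TPM in SOL (CAC and NONCAC), also apart.

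The genes were also set against those of the ribosome of the cytosol. Per 1000 TPM of cytosolic ribosomal protein genes, the mitoribosomal genes held 121.5 ± 16.7 TPM in the CAC (SD, n = 10) and 172 ± 8.62 TPM in the NONCAC mock diaphragm (SD, n = 9), with ranges of 96.7 to 152 and 157 to 182. In TA the ranges were 76.4 to 135 in CAC and 185 to 204 in NONCAC libraries, and 120 to 135 in CAC without the library of low mitochondrial share. In SOL they were 76.8 to 112 and 133 to 148, and the library with high Myh4 lay inside the CAC range at 93.3. CAC and NONCAC libraries did not overlap in any of the 3 muscles without rFibcd1. Within the high state of the mock diaphragm the ranges were 96.7 to 152 (9 CAC) and 169 to 182 (3 NONCAC), and within the low state the single CAC library stood at 125, below the 157 to 182 of 6 NONCAC libraries. With rFibcd1 the ranges were 87.4 to 173 in CAC and 118 to 187 in NONCAC diaphragm, and they overlapped. Without rFibcd1 the mean cytosolic sums were higher in CAC, at 33273 and 21466 TPM (mock diaphragm), 32339 and 15749.5 (TA), and 37959 and 25164.5 (SOL). As deposited, the mean mitoribosomal sums were not lower in CAC, at 3994 and 3699, 3562 and 3100, and 3752 and 3518 TPM in the same order. Per 1000 TPM of nuclear-encoded oxidative phosphorylation (OXPHOS) subunits the means were closer, at 83.0 and 82.5 in the mock diaphragm, 104 and 91.6 in TA and 95.5 and 86.5 in SOL (CAC and NONCAC). Without the libraries named above the CAC means were 98.4 in TA and 95.8 in SOL.

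Markers of other cell types were summed in each library, and their part in these values was not tested. The summed TPM of the 5 macrophage markers in the table was 43.0 to 164 in the CAC and 32.2 to 67.0 in the NONCAC mock diaphragm, 7.33 to 51.0 and 4.65 to 8.69 in TA, and 15.7 to 108 and 16.3 to 25.8 in SOL (CAC and NONCAC). Fibroblast markers (5) were at 200.3 to 533 TPM in CAC and 524 to 682 TPM in NONCAC SOL, mostly lower in CAC, and at 216 to 443 and 135 to 252 TPM in TA, mostly higher in CAC, with 604 to 1184 and 647 to 1059 TPM in the mock diaphragm. Adipocyte markers (6) were at 1147 to 5387 TPM in the CAC and 705 to 2344 TPM in the NONCAC mock diaphragm, at 340.1 to 521 and 304 to 391 TPM in TA, and at 702 to 7382 and 892 to 2312 TPM in SOL. Endothelial markers (5) were at 108 to 226 and 84.7 to 117 TPM in TA, at 178 to 252 and 161 to 217 TPM in the mock diaphragm, and at 141 to 223 and 148 to 189.8 TPM in SOL. Red cell markers (4) were at 1509 to 13030 and 1910 to 9606 TPM in the mock diaphragm, 310 to 800 and 279 to 975 TPM in TA, and 167 to 1059 and 514 to 1505 TPM in SOL. Liver markers (4) were at 0.345 to 24.1 and 0.149 to 0.424 TPM in TA and 0.276 to 1.45 and 0.193 to 60.5 TPM in SOL. In the mock diaphragm their medians were 28.5 TPM in CAC and 17.99 TPM in NONCAC muscle, with 1 CAC library at 1990 TPM (next 161) and 1 NONCAC library at 7610 TPM (next 577). None of these markers was at 0 in all libraries, and the ranges of CAC and NONCAC libraries overlapped in each of these cases.

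Of the 77 genes, 18 were higher and 1 was lower in CAC than in NONCAC mock diaphragm as deposited. Of the large subunit 11 of 48 were higher, and of the small subunit 7 of 29 were higher and 1 lower, where 30.9% of all genes tested were called higher and 2.67% lower. The share of the genes called higher was thus under that of the whole table. Their median log2 fold change was 0.06 for the large and 0.08 for the small subunit, under the 0.20 of all genes, and 57 of the 77 lay below that median. After median-ratio scaling the direction turned, with no gene higher and 8 large- and 2 small-subunit genes lower (background 7.39% higher and 8.41% lower), and the sign of 46 of 77 values changed. Without the CAC library of highest liver markers 14 were higher and none lower as deposited by limma (background 26.9% and 2.28%), and without the NONCAC library of highest liver markers 13 and none (background 27.4% and 2.31%). With Pcna-ps2 state as a term, 7 were higher and 3 lower as deposited (background 12.3% and 3.03%), and by limma none was called after median-ratio scaling (10 at an unadjusted p under 0.05, background 6.44% and 5.19%). Among high-state libraries alone none was called as deposited by limma (12 at an unadjusted p under 0.05, background 5% and 0.685%).

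Tibialis anterior showed the most calls. As deposited, 12 large- and 8 small-subunit genes were higher in CAC muscle and 4 and 1 were lower, against a background of 56.4% higher and 3.78% lower. The medians were 0.20 and 0.26, under the 0.41 of all genes, and 62 of the 77 lay below it. CAC and NONCAC values did not overlap for 30 genes, of which 25 were above and 5 below, where 49.1% of all genes tested were above and 2.55% below. After median-ratio scaling the direction turned here as well, with 2 genes higher and 33 large- and 13 small-subunit genes lower (background 18.4% and 21.9%), and medians of -0.29 and -0.23. Without the CAC library of low mitochondrial share the counts were 28 higher and 9 lower as deposited (background 61.1% and 5.56%), and with that library also left out of the median-ratio fit 3 were higher and 47 lower (background 19.2% and 22.8%).

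In soleus 8 large- and 5 small-subunit genes were higher and 1 small-subunit gene was lower as deposited, against 17.5% of all genes higher and 7.54% lower. The medians of 0.08 and 0.13 stood close to the 0.09 of all genes, and 36 of 77 lay below it. Non-overlap between CAC and NONCAC libraries was found for 15 of the 77 genes, all higher in CAC, where 14.6% of all genes tested were above and 5.4% below. Median-ratio scaling left 4 large- and 3 small-subunit genes higher and 2 lower (background 15.2% and 12.8%), with medians of -0.01 and 0.04. The direction turned without mitochondrial genes, with 4 higher and 14 lower where the whole table also had more lower than higher calls (background 7.65% and 23.4%). After quantile normalization 6 were higher and 8 lower (background 13.3% and 14.4%). Without the library of high Myh4, 12 were higher and none lower as deposited by limma (background 15.5% and 6.1%), and the lower call lost was that of Mrps28 (adjusted p = 0.0712).

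**Figure D2:**
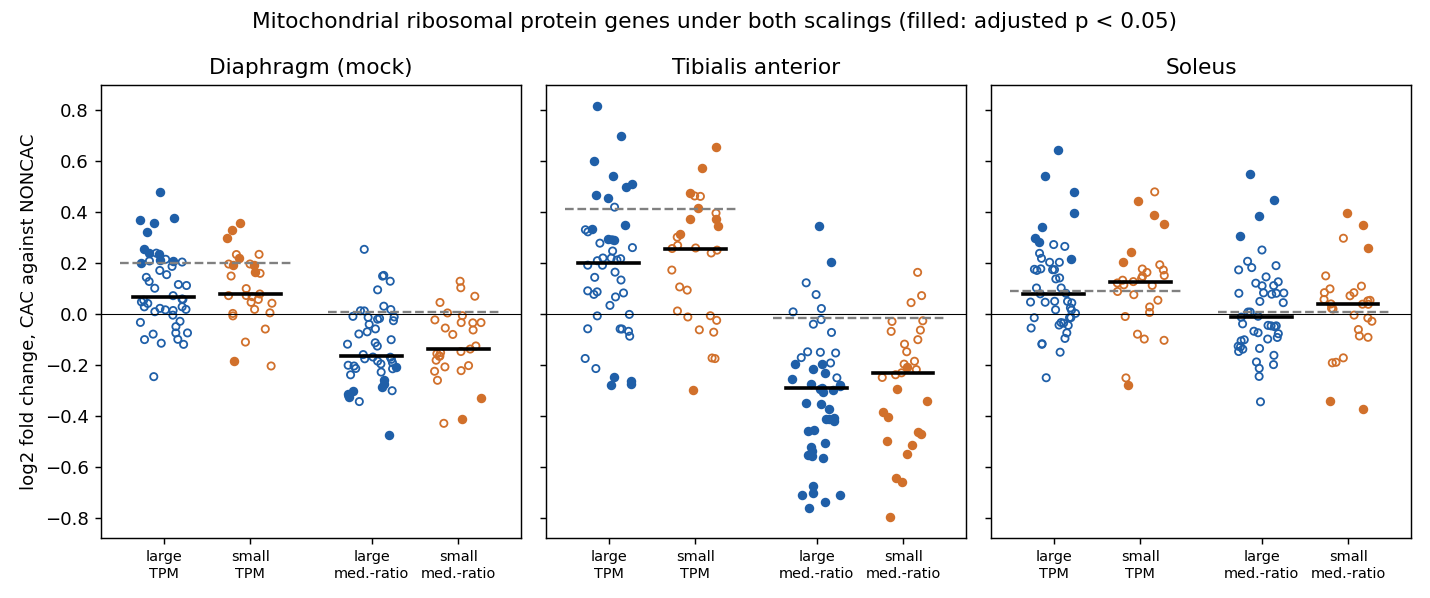
Log2 fold changes (CAC against NONCAC, log2(TPM + 1) scale) of the 48 large- and 29 small-subunit genes in the 3 muscles, 1 point per gene, filled where limma's adjusted p is under 0.05. Each muscle is drawn as deposited (TPM) and after median-ratio scaling. The dashed grey line is the median of all genes tested and the black bar the median of the mitoribosomal genes. In the mock diaphragm and TA the bar lies below the dashed line, and after median-ratio scaling most values there turn below 0.

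As deposited, 6 genes were called higher in CAC muscle of all 3 kinds, where 12.3% of the genes tested in all 3 were, a larger share than 6 of 77. They were Mrpl20, Mrpl33 and Mrpl52 of the large subunit and Mrps7, Mrps15 and Mrps24 of the small one. None of the 6 was called in all 3 after median-ratio scaling (background 3.5%). Mrps28, a small-subunit protein, was called lower in all 3 on both scales (background 0.88%). Its diaphragm call was lost with Pcna-ps2 state as a term and among high-state libraries. These genes were singled out after their values were seen.

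Mrpl33 encodes the counterpart of bacterial protein L33. It was at 16.4, 17.99, 29.2, 21.1 and 19.7 TPM in the CAC and at 11.6, 11.05, 11.3, 11.3 and 10.7 TPM in the NONCAC TA libraries. Every CAC value was above every NONCAC value, and the highest came from the library of low mitochondrial share. The log2 fold change was 0.82 ± 0.14 (SE, adjusted p = 0.00146), and 0.34 (adjusted p = 0.00116) after median-ratio scaling, and 0.69 (adjusted p = 4.02e-05) without that library. In SOL it was at 28.1, 25.8, 29.4, 29.6 and 33.8 TPM in CAC and 19.98, 19.1, 22.2, 17.95 and 20.1 TPM in NONCAC libraries, again without overlap. The difference was 0.54 ± 0.09 (SE, adjusted p = 0.0018), 0.45 (adjusted p = 0.00342) after median-ratio scaling and 0.58 (adjusted p = 0.00223) without the library of high Myh4. In the mock diaphragm the lowest, median and highest values were 13.5, 21.8 and 25.1 TPM in CAC and 12.4, 14.1 and 23.5 TPM in NONCAC, which overlapped. There the log2 fold change of 0.37 (adjusted p = 0.0287) became 0.15 (adjusted p = 0.482) after median-ratio scaling and 0.01 (adjusted p = 0.97) among high-state libraries, and -0.18 (adjusted p = 0.511) with both. In the diaphragm the values followed the Pcna-ps2 state. Of the NONCAC mock libraries, the 3 in the high state were at 19.3 to 23.5 TPM and the 6 in the low state at 12.4 to 14.3 TPM, and of the CAC mock libraries the 9 in the high state were at 18.1 to 25.1 TPM and the single low one at 13.5 TPM. With rFibcd1 the states overlapped, and 1 of 2 low-state CAC libraries was at 28.2 TPM. In TA and SOL the higher Mrpl33 of CAC muscle cannot be told apart from the state, which there coincides with the melanoma. Mrpl33 overlaps Gm43809 and Rbks in the annotation.

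Mrpl52, a large-subunit protein specific to mitochondria, had 57.2, 61.6, 75.1, 69.6 and 51.4 TPM in the CAC and 37.0, 36.1, 43.1, 42.9 and 39.5 TPM in the NONCAC SOL libraries. The groups were apart, and the contrast of 0.64 ± 0.11 (SE, adjusted p = 0.00196) was 0.55 (adjusted p = 0.00233) after median-ratio scaling and 0.65 (adjusted p = 0.00516) without the library of high Myh4. In TA the values were 33.4, 42.6, 64.7, 42.8 and 42.9 TPM in CAC against 31.5, 27.9, 30.2, 30.9 and 35.1 TPM in NONCAC libraries. One CAC value lay inside the NONCAC range there. The log2 fold change of 0.50 ± 0.15 (SE, adjusted p = 0.017) was 0.01 (adjusted p = 0.94) after median-ratio scaling and 0.36 (adjusted p = 0.00504) without the library of low mitochondrial share. The lowest, median and highest mock diaphragm values were 42.6, 48.3 and 75.5 TPM in CAC and 29.7, 36.1 and 47.6 TPM in NONCAC. This was the largest rise of any of the 77 genes in that muscle, at 0.48 ± 0.14 (SE, adjusted p = 0.00779), and 0.25 (adjusted p = 0.322) after median-ratio scaling. With state as a term it was 0.49 (adjusted p = 0.0269), and the call was lost among high-state libraries (0.46, adjusted p = 0.0714), with median-ratio scaling and the state term (0.42, adjusted p = 0.107) and with median-ratio scaling of high-state libraries (0.27, adjusted p = 0.326). No annotated gene overlaps Mrpl52.

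Mrps28 went the other way. Its TA values were 77.4, 69.0, 80.48, 63.5 and 63.5 TPM in CAC and 88.96, 82.01, 80.54, 91.2 and 92.8 TPM in NONCAC libraries. The highest CAC library lay just under the lowest NONCAC library. The log2 fold change was -0.30 ± 0.10 (SE, adjusted p = 0.0262), -0.80 (adjusted p = 0.000972) after median-ratio scaling and -0.35 (adjusted p = 0.00223) without the library of low mitochondrial share. In SOL the values were 89.6, 71.4, 68.6, 67.7 and 79.5 TPM in CAC and 95.4, 85.9, 92.8, 91.6 and 90.3 TPM in NONCAC libraries, with 1 CAC library inside the NONCAC range. The difference was -0.28 ± 0.09 (SE, adjusted p = 0.0355), -0.37 (adjusted p = 0.049) after median-ratio scaling and -0.26 (adjusted p = 0.0712) without the library of high Myh4. In the mock diaphragm the mean was 74.6 ± 6.52 TPM in CAC (SD, n = 10) and 85.02 ± 9.08 TPM in NONCAC muscle (SD, n = 9). The log2 fold change there was -0.18 ± 0.07 (SE, adjusted p = 0.0423), and -0.41 (adjusted p = 0.0168) after median-ratio scaling. With state as a term it was -0.15 (adjusted p = 0.195), and among high-state libraries -0.22 (adjusted p = 0.165). With median-ratio scaling and the state term it was -0.22 (adjusted p = 0.196), and with median-ratio scaling of high-state libraries -0.41 (adjusted p = 0.0908). In SOL the call was lost by the Dunn test (adjusted p = 0.0641). It was also lost there with median-ratio scaling without the CAC library of highest summed TPM (-0.38, adjusted p = 0.0669). The call was kept in 27 of 39 fits that left out 1 library in the diaphragm, 5 of 10 in TA and 2 of 10 in SOL, with the direction kept in all. Mrps28 (chr3:8802146-8923918, minus strand) overlaps Gm15466 on its own strand and Gm15467 on the other, and how reads there were assigned is not given in the sources used here.

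**Figure D3:**
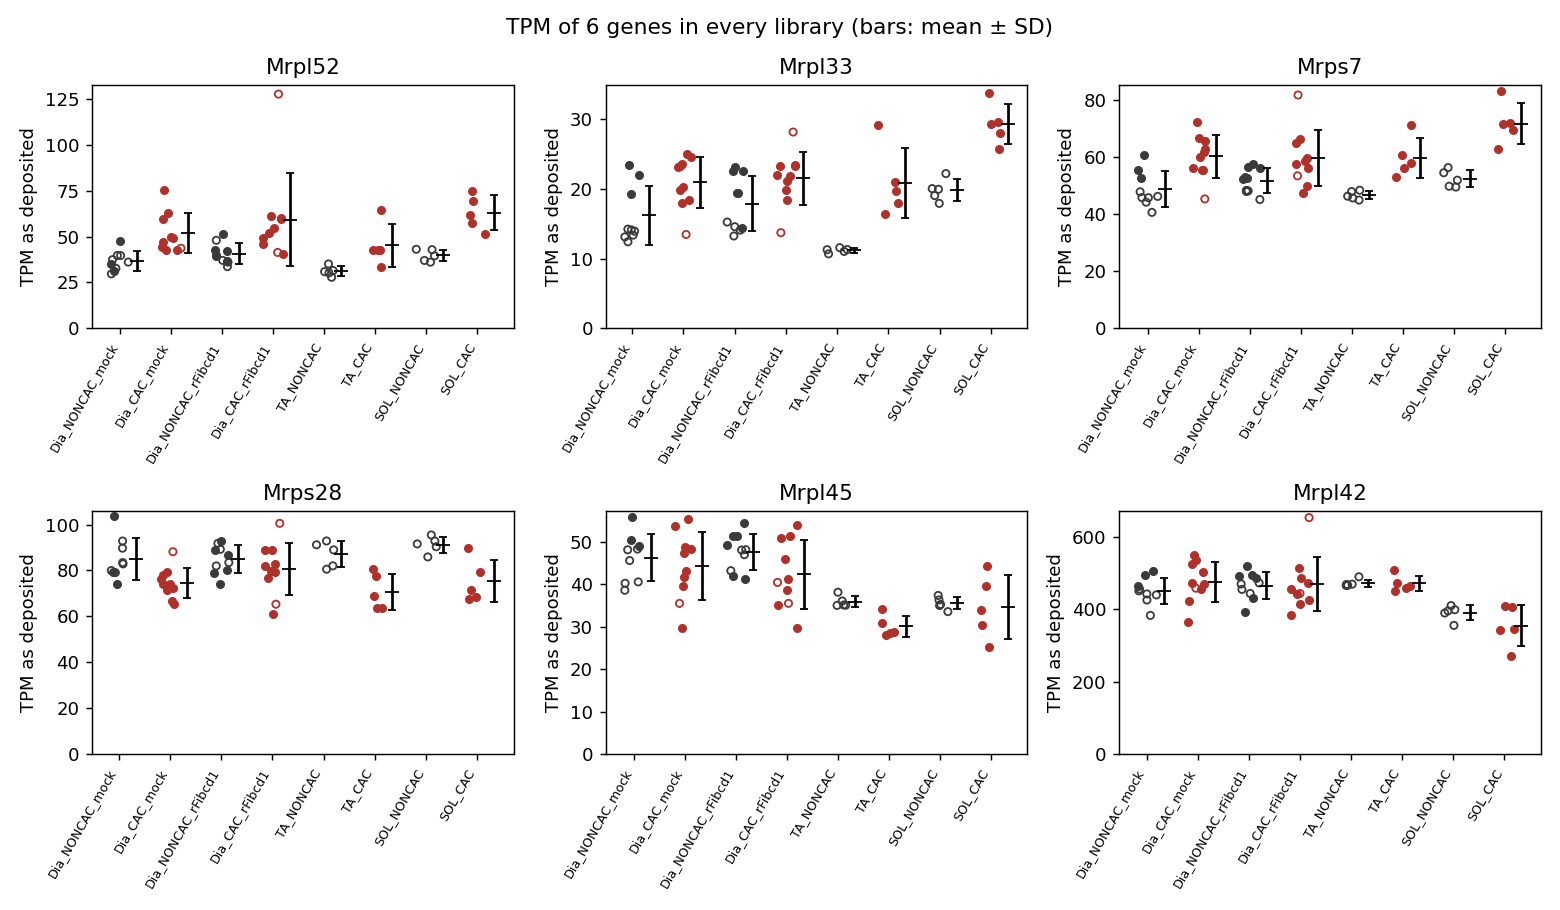
TPM of Mrpl52, Mrpl33, Mrps7, Mrps28, Mrpl45 and Mrpl42 in each library of the 8 groups, with 1 circle per library (red CAC, dark NONCAC, filled high state, open low state) and bars for mean ± SD. Mrpl33 and Mrpl52 lie higher and Mrps28 lower in CAC limb muscle, and Mrpl42 has its lowest group means in SOL.

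Other genes were called on both scales in 1 limb muscle. In TA 2 of the 77 were higher and 5 lower on both (background 18.4% and 3.77%), and in SOL 6 and 1 (background 14.6% and 7.49%). In TA Mrpl23, whose bacterial counterpart lies at the exit of the peptide tunnel, was at 52.6 to 94.4 TPM in CAC and 38.0 to 40.6 TPM in NONCAC libraries. Its contrast was 0.70 ± 0.14 (SE, adjusted p = 0.00331), 0.20 (adjusted p = 0.0166) after median-ratio scaling and 0.56 (adjusted p = 3.14e-05) without the library of low mitochondrial share. Mrpl45, a mitochondria-specific protein that tethers the ribosome to the inner membrane, fell. It was at 28.6, 30.95, 27.97, 34.2 and 28.8 TPM in CAC and 35.1, 35.02, 36.1, 35.1 and 38.1 TPM in NONCAC TA libraries. The difference was -0.25 ± 0.09 (SE, adjusted p = 0.0376), -0.74 (adjusted p = 0.00378) after median-ratio scaling and -0.22 (adjusted p = 0.0102) without that library. Mrpl46 (18.4 to 20.6 against 22.2 to 25.7 TPM, log2 fold change -0.28, adjusted p = 0.023), Mrpl48 (-0.26, adjusted p = 0.0407) and Mrpl19 (-0.28, adjusted p = 0.033) were also lower in TA on both scales. Leaving out each of the 10 TA libraries in turn kept the call of Mrpl23 in all 10 fits, of Mrpl46 in 8, of Mrpl19 and Mrpl48 in 3 each and of Mrpl45 in 2, with adjusted p reaching 0.0107, 0.062, 0.0788, 0.105 and 0.0874. In SOL Mrpl43 (0.48, adjusted p = 0.00274), Mrpl20 (0.40, adjusted p = 0.00467), Mrps7 (0.44, adjusted p = 0.00349) and Mrps18c (0.35, adjusted p = 0.0114) were higher on both scales, each in all 10 fits that left out 1 library. In the mock diaphragm none was higher and 1, Mrps28, was lower on both (background 7.39% and 2.63%).

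Of the genes with known roles of their own, Mrpl12 had log2 fold changes of 0.11 in the mock diaphragm, -0.18 in TA (adjusted p = 0.105) and 0.10 in SOL, and -0.67 (adjusted p = 0.00156) in TA after median-ratio scaling. Without the library of low mitochondrial share its TA value was -0.21 (adjusted p = 0.00968). Mrps12, the counterpart of the bacterial decoding-center protein S12, had -0.20, -0.17 and 0.01, and in TA after median-ratio scaling -0.66 (adjusted p = 0.00716). Of Mrps18a, Mrps30 and Mrps36, whose proteins sit elsewhere than their names say, none was called as deposited, with log2 fold changes of 0.07, 0.26 and 0.11 for Mrps18a, 0.10, 0.27 and 0.09 for Mrps30 and 0.23, 0.30 and 0.15 for Mrps36 (mock diaphragm, TA, SOL). Mrps18b and Mrps18c are relatives of Mrps18a in the small subunit. Mrps18b was called higher in the mock diaphragm (0.33, adjusted p = 0.00868) and SOL (0.24, adjusted p = 0.0193) and had 0.46 in TA (adjusted p = 0.0523), or 0.25 (adjusted p = 0.00689) without the library of low mitochondrial share, and after median-ratio scaling its values of 0.10, -0.03 and 0.15 did not pass. Mrps18c was called higher in the mock diaphragm (0.22, adjusted p = 0.0317) as well as SOL and had 0.25 in TA (adjusted p = 0.0506), or 0.19 (adjusted p = 0.0151) without that library, and after median-ratio scaling the call was kept in SOL alone of the 3 (0.26, adjusted p = 0.0445). Among the genes with the lowest changes, Mrpl28 had -0.25 (adjusted p = 0.066) in the mock diaphragm, and Mrpl18 and Mrps26 each had -0.25 in SOL. Mrps26 in SOL passed after median-ratio scaling (-0.34, adjusted p = 0.00605). Mrps10, the least abundant of the 77, had 0.48 in SOL (adjusted p = 0.0522).

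By origin, small-subunit proteins with bacterial counterparts (16 genes) had medians of 0.18, 0.36 and 0.15 in the mock diaphragm, TA and SOL. Of these 6, 7 and 4 were called higher and 1 lower in each muscle, where 30.9%, 56.4% and 17.5% of all genes were called higher and 2.67%, 3.78% and 7.54% lower. The 10 mitochondria-specific small-subunit genes had medians of 0.03, 0.05 and 0.08, with 1 called higher in each. In the large subunit the 29 genes with bacterial counterparts had medians of 0.11, 0.21 and 0.10, and the 19 mitochondria-specific ones 0.05, 0.19 and 0.05. The difference between these classes was not tested. Short transcripts had higher values than long ones among the 77 genes. The 36 genes under 1000 nt had a median of 0.16 in the mock diaphragm, 0.26 in TA and 0.16 in SOL, against 0.04, 0.09 and 0.07 for longer ones. Over all genes the medians under and over 1000 nt were 0.21 and 0.20, 0.45 and 0.41, and 0.15 and 0.08. The part of transcript length in the class medians was not tested.

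The order of the 77 log2 fold changes was alike between muscles. Spearman's rho across genes was 0.84 between mock diaphragm and TA, 0.85 between mock diaphragm and SOL and 0.80 between TA and SOL, and over all genes tested in both it was 0.73, 0.66 and 0.57. Genes are not independent replicates, the scale of each library enters every gene, and the labels do not say whether muscles came from the same mice, so these are descriptions. The plot of the genes in order of their change shows how the 3 muscles follow each other.

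**Figure D4:**
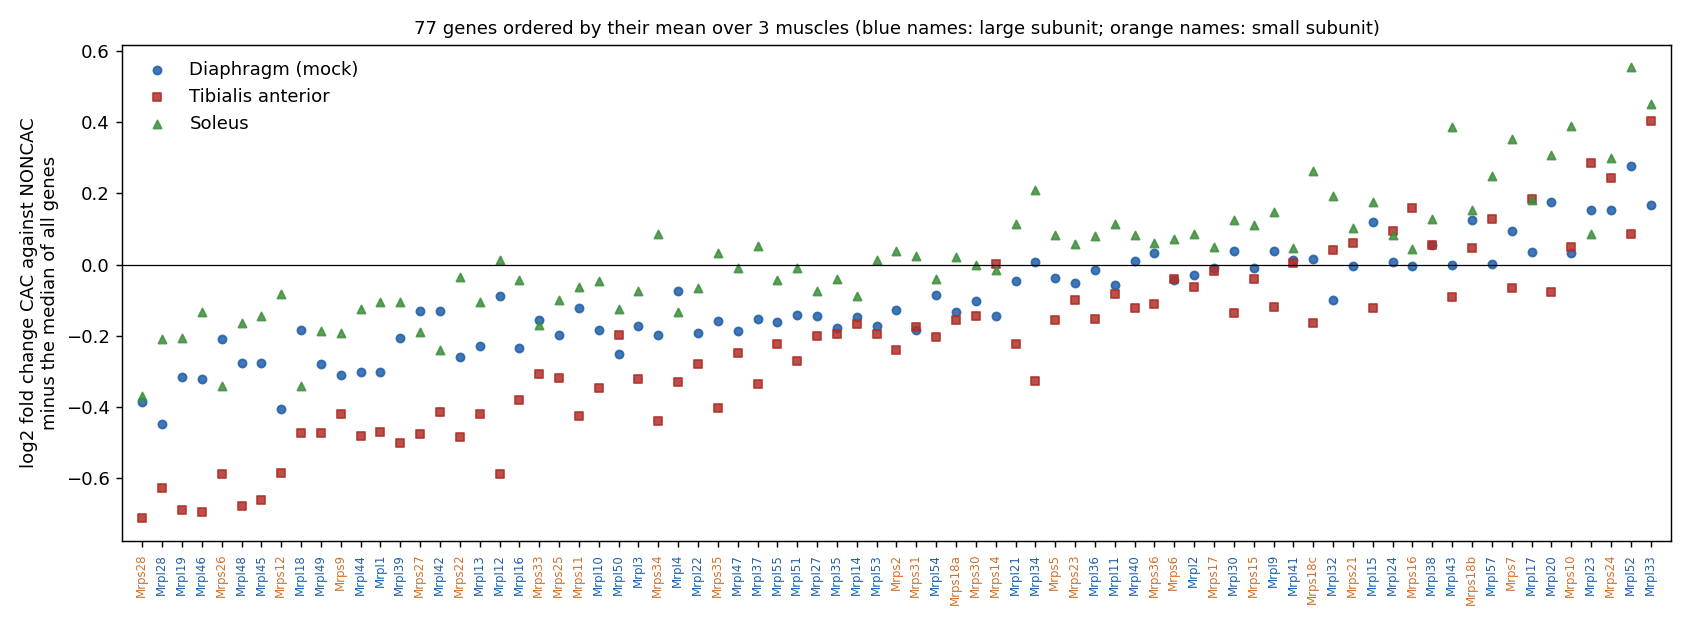
Log2 fold change (CAC against NONCAC, TPM as deposited) minus the median of all genes tested, for the 77 genes ordered by their mean over the mock diaphragm, TA and SOL (1 symbol per muscle, 0 is the median of all genes). Mrps28 is at the low end and Mrpl52 and Mrpl33 are at the high end, and most values of TA and the mock diaphragm lie below 0, while on the deposited scale itself most are above 0.

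Other genes of mitochondrial and cytosolic translation were counted in the same fits, where 30.9%, 56.4% and 17.5% of all genes were called higher and 2.67%, 3.78% and 7.54% lower (mock diaphragm, TA, SOL). After median-ratio scaling these shares were 7.39%, 18.4% and 15.2% higher and 8.41%, 21.9% and 12.8% lower, and each list's counts are to be read against the shares of the same scale. Cytosolic ribosomal protein genes were called higher in 77, 74 and 74 of 81 (mock diaphragm, TA, SOL), with medians of 0.62, 0.97 and 0.60, and in 42, 68 and 73 after median-ratio scaling. The 13 protein genes of mitochondrial DNA, the messages that the mitoribosome reads, were lower in 10, 5 and 9, with medians of -0.31, -0.36 and -0.47. Both mitochondrial rRNAs were listed at 0 in every library. Of 80 nuclear OXPHOS genes, 9, 10 and 7 were higher and 2, 16 and 2 lower as deposited, while 58 were lower in TA after median-ratio scaling.

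Factors that assist the mitoribosome gave few calls as deposited. Of 16 translation factors and message-specific activators none was called in the mock diaphragm by limma. In TA the recycling factor Mrrf was higher (0.41) and Taco1, the activator of cytochrome c oxidase subunit I synthesis, fell by 0.60 on the log2 scale (adjusted p = 0.00358). In SOL Lrpprc, which stabilizes mitochondrial messages, and the initiation factor Mtif2 were lower (-0.42 and -0.39). After median-ratio scaling 7, 12 and 4 of the 16 were lower. Of 20 mitochondrial tRNA synthetases 1 was higher in the mock diaphragm, Rars2 (0.21), and 4 in TA, among them Iars2 (0.42) and Wars2 (0.35). The values of Mrrf, Rars2, Iars2 and Wars2 lay close to or below the median of all genes in the same muscle. Of the other 5 proteins of the particle only Dap3, a GTP-binding protein of the small subunit, was called, in TA (-0.23, adjusted p = 0.0412).

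Assembly and rRNA-modifying factors bring the particle together inside the organelle. Of 23 tested, 6 were higher in the mock diaphragm, 11 in TA and 3 in SOL, with 1 lower in SOL, and their medians of 0.12, 0.31 and 0.0094 lay below those of all genes. Malsu1, a factor of large-subunit assembly, rose in all 3, from 7.47 ± 1.02 to 10.6 ± 1.63 TPM in the mock diaphragm (0.45 ± 0.10, SE, adjusted p = 0.00118), from 8.10 ± 0.62 to 17.2 ± 8.62 TPM in TA (0.91 ± 0.22, adjusted p = 0.00715) and from 7.56 ± 0.357 to 11.5 ± 1.62 TPM in SOL (0.54 ± 0.10, adjusted p = 0.00273). After median-ratio scaling it passed in TA and SOL but not in the diaphragm (adjusted p = 0.234). Malsu1 spread widely among the CAC TA libraries. Its values without the library of low mitochondrial share, or by Pcna-ps2 state, are not given here. Mpv17l2 rose in the diaphragm (0.66), the rRNA methyltransferase Tfb1m in TA (0.65) and the small-subunit maturation factor Rbfa in SOL (0.60). Among 13 regulators of mitochondrial transcription and biogenesis, 3, 8 and 2 were higher and 0, 2 and 2 lower. Myc, a transcription factor that drives ribosome production, rose in all 3 muscles on both scales (1.47, 1.74 and 1.36 as deposited). Nrf1 was higher in the mock diaphragm (0.37) and TA (0.64), and the coactivator Ppargc1b was lower in SOL (-0.52).

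**Figure D5:**
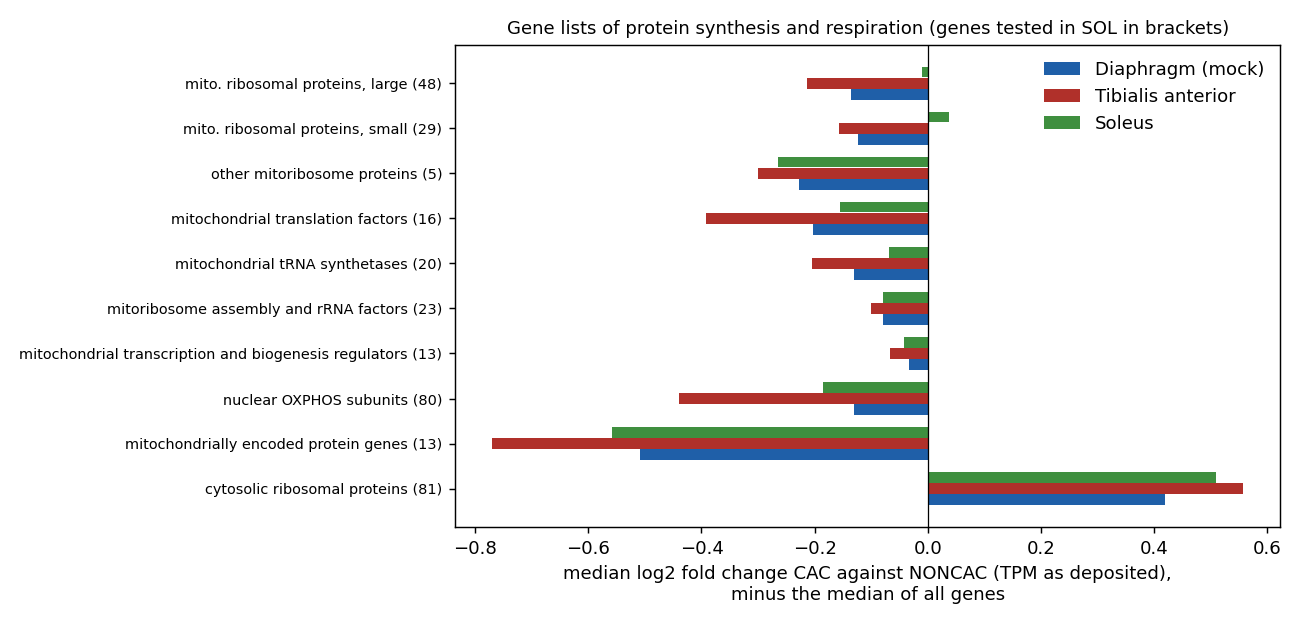
Median log2 fold change (CAC against NONCAC, TPM as deposited) of each gene list after subtracting the median of all genes tested, 1 bar per muscle, with the number of genes in brackets. Medians of the mitoribosomal genes lie below 0 in the mock diaphragm and TA, cytosolic ribosomal proteins lie above 0 in all 3 and mitochondrially encoded genes below, and relative to 0 rather than to all genes the mitoribosomal medians are positive as deposited and negative in the mock diaphragm and TA after median-ratio scaling.

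Whether the melanoma contrast differed between muscles was tested in 1 fit of the 6 groups without rFibcd1. That fit treated all libraries as independent, although libraries of different muscles with the same column number were correlated (median 0.298 in their deviations). Between TA and SOL, 3 genes had a larger log2 fold change in TA as deposited. These were Mrpl23 by 0.52 ± 0.14 (SE, adjusted p = 0.0125), Mrps16 by 0.44 ± 0.16 (adjusted p = 0.0457) and Mrpl24 by 0.33 ± 0.12 (adjusted p = 0.0446), where 20.4% of all genes were called in either direction. The direction turned under median-ratio scaling, with 19 genes at a lower log2 fold change in TA than in SOL (background 11.5%), among them Mrpl12 by -0.69 (adjusted p = 0.0122). None of the first 3 was called there, with Mrpl23 at 0.11 (adjusted p = 0.647), Mrps16 at 0.026 (adjusted p = 0.942) and Mrpl24 at -0.067 (adjusted p = 0.675). Without the TA library of low mitochondrial share, or without the SOL library of high Myh4, Mrpl23 was the only one called (0.38, adjusted p = 0.0235, and 0.57, adjusted p = 0.0103), where 10.4% and 13.9% of all genes were called higher and 1.4% and 1.31% lower. Between mock diaphragm and TA limma called none of the 77 (12 at an unadjusted p under 0.05, background 5.04%), with Mrpl33 at -0.45 (adjusted p = 0.139). After median-ratio scaling 1 was called (background 5.15%), Mrpl12 at 0.55 (adjusted p = 0.038). Between mock diaphragm and SOL limma called none (1 at an unadjusted p under 0.05, background 2.52%). After median-ratio scaling 1 was called (background 3.73%), Mrpl43 at -0.42 (adjusted p = 0.0181). No Dunn test was run for these differences.

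Between muscles of NONCAC mice, the diaphragm against TA gave 35 large- and 16 small-subunit genes higher in the diaphragm and none lower as deposited (background 64% higher and 8.52% lower). The median difference was 0.30 for the large and 0.28 for the small subunit, below the 0.44 of all genes. After median-ratio scaling the direction turned, with 2 higher and 47 lower (background 34.6% and 36.4%). Mrps9 was higher in diaphragm on both scales, at 16.7 against 9.72 TPM (0.73 and, after median-ratio scaling, 0.19, adjusted p = 0.046). Mrpl41 had the largest difference as deposited, 0.80. Mrpl42 and Mrps21 had the lowest, -0.07 and -0.14, and did not pass.

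Against SOL the NONCAC diaphragm had 8 large- and 8 small-subunit genes higher and 2 and 4 lower (background 16.8% and 22.1%), and after median-ratio scaling 22 were higher and 6 lower (background 23.2% and 24%). On both of these scales 15 genes were higher and 5 lower (background 16.7% and 20.9%). Without mitochondrial genes 44 were higher and 2 lower (background 30.8% and 13.9%), and after quantile normalization 35 and 4 (background 18.8% and 27.8%). Mrpl34 was the highest (0.70, adjusted p = 0.000547) and Mrps36 next (0.40, adjusted p = 0.0249), while Mrpl54 (-0.50, adjusted p = 0.000577) and Mrps18a (-0.47, adjusted p = 0.000197) were the lowest. Between TA and SOL, 25 large- and 17 small-subunit genes were lower and 1 higher in TA as deposited (background 5.63% higher and 63.9% lower), with a direction that turned to 53 higher and none lower by limma after median-ratio scaling (background 28.2% and 25.1%). Mrpl42 was higher in TA on both scales, at 472 ± 10.1 against 390 ± 20.6 TPM (SD, n = 5 each), a log2 difference of 0.28 (adjusted p = 0.009) and 0.91 after median-ratio scaling. Mrpl34 had 0.17 (adjusted p = 0.385) as deposited and 0.79 after median-ratio scaling. Mrpl14 showed the largest difference in the other direction as deposited, at 72.8 TPM in TA and 137 TPM in SOL (-0.91, adjusted p = 9.03e-07), but did not pass after median-ratio scaling (adjusted p = 0.113). Mrpl33 was at -0.77 (adjusted p = 4.19e-05) as deposited and -0.18 after median-ratio scaling, where it did not pass.

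rFibcd1 itself changed no mitoribosomal gene past the threshold. In CAC diaphragm, rFibcd1 against mock, limma called 0 of 77 (4 at an unadjusted p under 0.05, 0 by the Dunn test, background 0.0447%). The highest and lowest values were those of Mrps12 (0.21) and Mrpl41 (-0.20). In NONCAC diaphragm it also called 0 (2 at an unadjusted p under 0.05, 0 by the Dunn test, background 0.417%), with Mrps6 at 0.26 (adjusted p = 0.284) and Mrps26 at -0.07. The background moved with the fit. With only the 2 NONCAC groups compared, limma called 0 of 77 (8 at an unadjusted p under 0.05, background 19% higher and 0.582% lower). Among high-state libraries the CAC contrast called 0 (13 at an unadjusted p under 0.05, background 4.76% and 0.812%). The interaction of rFibcd1 with melanoma called 0 (3 at an unadjusted p under 0.05, background 0.0223%), with Mrpl14 at 0.15 and Mrpl34 at -0.36 (adjusted p = 0.606).

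Among mice given rFibcd1, CAC against NONCAC diaphragm gave 2 large- and 2 small-subunit genes higher and none lower (background 7.14% higher and 1.97% lower), and none was called after median-ratio scaling by limma (8 at an unadjusted p under 0.05, background 4.23% and 4.74%) or by the Dunn test as deposited. The 4 were Mrpl24, Mrpl52, Mrps15 and Mrps18c. Mrpl52 was the highest (0.46, adjusted p = 0.0245) and Mrpl28 the lowest (-0.23, adjusted p = 0.15). A single low-state CAC library had 128 TPM of Mrpl52, and the next had 61.0 TPM. Without it 2 genes were called (background 9.47% higher and 1.58% lower), Mrpl52 (0.33, adjusted p = 0.0336) and Mrps15 (0.14, adjusted p = 0.0474). Fewer calls with rFibcd1 than with mock injection do not by themselves show that the contrasts differ, and the interaction that tests this called none.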

How the data were processed

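Bulk RNA-seq of mouse muscle was deposited by the authors as 1 table of TPM. Per the study's methods, reads were aligned to GRCm38 (mm10) and TPM made with CLC Genomics Workbench; the annotation is not given in the sources used here, and labels and methods differ on kit and instrument. Every column has the same total, so depth is unknown and no counting interval was computed. Column names gave the group but not which labelled replicate. Per the study's methods, replicates came from separate animals, and whether TA, SOL and diaphragm share mice is not given.

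Values were taken as log2(TPM + 1), with genes kept at TPM of at least 1 in as many samples as the smallest group holds, and compared with limma 3.58.1 (R 4.3.3, trend, two-sided, Benjamini-Hochberg over all genes tested, adjusted p under 0.05). Diaphragm (39 samples), TA, SOL and the 6 groups without rFibcd1 (39 samples) were separate fits, tested on simulated data. Dunn tests, which the study applied after Kruskal-Wallis tests, were an alternative. Median-ratio scaling divided each library by its median ratio to the geometric mean of genes above 0 in all libraries.

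Members, lists and tests were chosen with earlier results of these data known. Named genes were the 3 highest and lowest changes per melanoma contrast, the 2 highest and lowest per muscle contrast, the highest and lowest and up to 5 called for rFibcd1 and differences between muscles, the 3 highest and lowest means, and 7 genes with known roles (Mrpl58 is listed under another symbol); others were chosen after their values were seen. Lists gave counts and medians only. A gene that the rule selected is left out of the text. Alternatives were another pseudocount, filters, scalings, Dunn tests, library state, and leaving out each library.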

Additional observations from a re-analysis of the deposited data

Results flagged for a closer look

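Each measure was examined in each sample group of 5 to 10 libraries. Of these 208 sets of values, 26 held a library far from the others by Dixon's criterion, where chance gives about 5%. The sets share libraries, and many of the flags come from the same library.

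In the CAC diaphragm with rFibcd1, 1 low-state library was the highest for the large-subunit sum (3811 TPM, next 3089), the small-subunit sum (1723 TPM, next 1296), Mrpl52 (128 TPM, next 61.0), Mrpl20 (62.2 TPM), Mrpl23 (113 TPM), Mrps24 (108 TPM), Mrps26 (33.5 TPM), Mrpl42 (653 TPM), Mrps21 (271 TPM, next 146), Mrps18a (45.5 TPM) and Mrps18c (57.8 TPM). Its mitochondrial share was 29.8%, against 32.7% to 46.4% in the other 9. Without it the group's sums were 2672 ± 219 and 1165 ± 94.2 TPM (SD, n = 9).

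In the CAC TA group the library with a mitochondrial share of 25.1% had the highest small-subunit sum (1506 TPM, next 1137), the lowest ratio of large to small subunit (1.95, next 2.12), the lowest value per 1000 TPM of cytosolic ribosomal protein genes (76.4 TPM, next 120), and the highest Mrpl23 (94.4 TPM), Mrps24 (71.7 TPM), Mrpl19 (5.99 TPM), Mrps26 (17.7 TPM), Mrps30 (48.5 TPM) and Mrps18b (70.5 TPM, next 37.5).

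Single libraries stood apart in 6 other cases. Mrpl20 was lowest at 27.3 TPM in 1 CAC mock diaphragm. Mrpl46 was lowest at 26.3 TPM and Mrps10 highest at 6.38 TPM in NONCAC diaphragm with rFibcd1. In NONCAC TA Mrpl42 was highest at 489.9 TPM and Mrpl12 lowest at 112 TPM. Mrps26 was highest at 19.0 TPM in 1 CAC SOL library.

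The log2 fold change between melanomas differed between TA and SOL, by the interaction test, for Mrpl23 (0.52), Mrps16 (0.44) and Mrpl24 (0.33). After median-ratio scaling none of the 3 was called, with 0.11 (adjusted p = 0.647), 0.026 (adjusted p = 0.942) and -0.067 (adjusted p = 0.675) in the same order.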

How the results depend on the processing

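The direction of most results turned with the scaling of the libraries, and the cause was not tested. Depth is unknown, and so is its part in any value. Percentages in brackets are the shares of all genes tested that were called higher and lower under the same setting. The 19 calls of the mock diaphragm (18 higher) became 10, all lower, after median-ratio scaling (7.39% and 8.41%), 21 lower without mitochondrial genes (6.75% and 7.28%) and 21 lower after quantile normalization (7.27% and 9.84%). With state as a term they were 10 (12.3% and 3.03%), among high-state libraries 0 (5% and 0.685%), and with median-ratio scaling added 0 (6.44% and 5.19%) and 1, lower (1.17% and 1.36%). Mrpl33 there turned to -0.18 with median-ratio scaling of high-state libraries. In TA, 25 calls (20 higher) became 48 (46 lower) after median-ratio scaling (18.4% and 21.9%), 28 (18 lower) without mitochondrial genes (39.5% and 8.85%), 44 (41 lower) after quantile normalization (18.5% and 21.3%), 50 (47 lower) with median-ratio scaling and without the highest CAC library (19.2% and 22.8%), and 39 (33 higher) by Dunn tests (62.2% and 3.96%). In SOL, 14 (13 higher) became 9 (7 higher; 15.2% and 12.8%), 18 (14 lower; 7.65% and 23.4%) and 14 (8 lower; 13.3% and 14.4%) under the first 3 of these. With rFibcd1, 4 became 0 after median-ratio scaling (4.23% and 4.74%), 11 lower without mitochondrial genes (3% and 6.23%), 8 lower after quantile normalization (4.16% and 8.05%), and 0 in a fit of 2 groups (2.13% and 0.483%), by Dunn tests and among high-state libraries, the last 2 with no gene of the whole table called (11 and 6 of the 77 at an unadjusted p under 0.05).

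Differences between diaphragm and TA in the melanoma contrast (0) became 1 (3.13% and 2.01%), 6 (1.17% and 17.1%) and 1 (1.65% and 1.32%) under the 3 scalings, and those between diaphragm and SOL (0) became 1 under median-ratio scaling (1.28% and 2.45%). Those between TA and SOL (3 higher) became 19 lower after median-ratio scaling (3.77% and 7.72%), 2 lower after quantile normalization (2.78% and 3.47%) and 1 without a filter (9% and 0.882%), and Mrpl24 turned to -0.067. In NONCAC mice, diaphragm against TA (51 higher) stayed at 51 higher without mitochondrial genes (65.9% and 9.97%) and became 49 (47 lower; 34.6% and 36.4%) and 34 (22 lower; 26.3% and 38.5%) under median-ratio and quantile scaling. Diaphragm against SOL (22) became 46 without mitochondrial genes (30.8% and 13.9%), 39 after quantile normalization (18.8% and 27.8%) and 4 (3 lower) by Dunn tests (1.73% and 6.99%). TA against SOL (43, of which 42 lower) became 53 higher after median-ratio scaling (28.2% and 25.1%), 24 (19 lower) without mitochondrial genes (8.97% and 54.9%), 36 (33 higher) after quantile normalization (25.3% and 21%) and 21 by Dunn tests (2.86% and 34.1%).

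Leaving out each library in turn gave 13 to 25 calls in the mock diaphragm, 0 to 6 with rFibcd1, 15 to 37 in TA, 7 to 15 in SOL, 0 to 4, 0 to 0 and 1 to 3 for the differences between diaphragm and TA, diaphragm and SOL, and TA and SOL, and 45 to 52, 15 to 28 and 37 to 44 for the NONCAC muscles in the same order. The counts of 15 and 16 in TA and of 7, 7, 8, 8 and 9 in SOL each came from leaving out a NONCAC library. The share of all genes called also moved between such fits. It was 38.1% and 3.29% in the mock diaphragm fit with 25 calls, and 27.4% and 2.31% in a fit with 13. In the TA fit with 37 calls it was 61.1% and 5.56%.

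The number in each column name, used as a replicate block after seeing the data, gave 2 (2.16% and 15%), 0 (5.95% and 1.41%) and 3 (38.7% and 2.56%) calls for the differences and 51 (66.9% and 10.1%), 30 (20.6% and 29.3%) and 46 (6.44% and 69.7%) for the NONCAC muscles. Libraries of the same number correlated at 0.0101 to 0.502 in their deviations (median 0.298), 28 of 30 pairs over 0.1, against a median of -0.0447 for other pairs. The correlation fitted within blocks was 0.381. As not every pair passed 0.1, the numbers were not used to pair samples. The fit of the 6 groups thus treated all libraries as independent, and its standard errors and p-values leave this correlation out. The numbers in the labels could not be tied to columns.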
